A study of Vitis vinifera with 8 samples.

Results

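UBQ14 (VIT_19s0177g00070), ATG8f (VIT_02s0154g00390) and UBIQUITIN1 (VIT_16s0098g01190) were followed in grapevine leaves as 3 of the 29798 genes with a VIT identifier on a custom array. They were taken by identifier alone, and each was represented by 1 probe. UBQ14 belongs to the polyubiquitin genes, ATG8f encodes a core protein of autophagy, and UBIQUITIN1 is the gene to which the study scaled its quantitative PCR. The OXNAC33 group held 4 arrays from plantlets of cv Sultana infiltrated with Agrobacterium tumefaciens C58C1 that carried 35S:VviNAC33, in which a constitutive viral promoter drives the grapevine transcription factor gene VviNAC33. The Control group held 4 arrays from plantlets infiltrated with the same strain carrying an empty pK7WG2 vector with a non-coding sequence. Per the labels, the plantlets were 6 weeks old, 8 were infiltrated for OXNAC33 and 7 for Control, and young leaves were taken after 7 days. The methods give a younger age, which they state for the time of infiltration. Per the methods, RNA came from a pool of a pair of apical leaves of each plant, and the hybridized OXNAC33 plants were those with the most transgene transcript, which makes VviNAC33 a selection criterion of that group. The expression was transient, and a leaf therefore held transformed and untransformed cells. Because whole leaves were extracted, a change in RNA per cell and a change in the number of cells that express a gene cannot be told apart.

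Ubiquitin is a small protein that cells attach to other proteins as a tag. Polyubiquitin genes encode several ubiquitin units in one chain, which is cut into single units after translation. An E1, an E2 and an E3 enzyme act in turn to attach ubiquitin, chains of it direct proteins to the 26S proteasome, and deubiquitinating enzymes remove it. ATG8 proteins are themselves ubiquitin-like. They are joined to a membrane lipid with the help of ATG7, an E1-like enzyme, and stay on the growing autophagosome, the vesicle that carries cell contents to the vacuole. In senescing leaves both routes break down protein so that nitrogen can be moved to other organs.

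Each level is the processed intensity of a probe divided by the 75th percentile of its array, on the log2 scale, so that 0 stands for the 75th percentile itself. That percentile was an intensity of 1421 to 1744 on the OXNAC33 arrays and 1379 to 2768 on the Control arrays, highest on Control replicates 1 and 2. The arrays were scanned on 3 dates. In each group, replicates 1 and 2 were scanned on date 1, replicate 3 on date 2 and replicate 4 on date 3. VviNAC33 itself (VIT_19s0027g00230) stood at 1.15, 0.59, -0.13 and -1.14 on OXNAC33 replicates 1 to 4, and at 0.14, -0.75, -1.15 and -1.37 on Control replicates 1 to 4. The difference of 0.90 (SE 0.52) had an unadjusted p of 0.121 in limma and 0.00751 in the fit with a replicate block. OXNAC33 replicate 3 and the array labelled OXNAC33 replicate 4 both fell within the spread of the Control arrays (-1.37 to 0.14), the second near its lower end. The leaf markers LHCA5, PSB27 and ATPC1, all genes of the photosynthetic apparatus, were well above background on all 8 arrays. Between the groups LHCA5 differed by -0.70 (limma unadjusted p = 0.190, and 0.0164 in the fit with a replicate block), PSB27 by -0.30 (0.260 and 0.174) and ATPC1 by 0.35 (0.344 and 0.123). The chlorophyll catabolism gene SGR1 (VIT_02s0025g04660) was higher in OXNAC33 by 2.63 (SE 0.34, limma unadjusted p = 4.58e-05, adjusted p = 0.406). It stood at 4.04, 3.39, 2.78 and 2.67 on OXNAC33 replicates 1 to 4. On Control replicates 1 to 4 it stood at 0.98, 0.70, 0.66 and 0.04. For this gene the array labelled OXNAC33 replicate 4 thus lay with the other OXNAC33 arrays, above all Control arrays. The study also listed SGR1 from these arrays, so that its low p is not independent evidence of its direction.

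UBQ14 was the only one of the 3 genes whose groups did not overlap. It stood at 5.43, 5.49, 5.66 and 5.20 on OXNAC33 replicates 1 to 4, and at 4.68, 4.37, 4.96 and 4.93 on Control replicates 1 to 4. In linear terms it was 36.8 to 50.6 times the 75th percentile on the OXNAC33 arrays and 20.7 to 31.1 times on the Control arrays. The lowest OXNAC33 array, replicate 4, exceeded the highest Control array, replicate 3, by 0.24. UBQ14 averaged 5.45 ± 0.19 in OXNAC33 and 4.74 ± 0.27 in Control (SD, n = 4 each), a difference of 0.71 or 1.64-fold (95% interval 1.21 to 2.21-fold). Across all 26579 probes tested, UBQ14 had a limma p of 0.00518 before adjustment and 0.636 after it, and did not pass. By exact permutation of 4 against 4 arrays, two-sided, p was 0.0286, the smallest value this number of arrays allows.

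At an unadjusted p under 0.05, UBQ14 was 1 of the 3 genes called, while 7.77% of all probes tested were called in either direction with 3.95% called higher and 3.82% lower. Groups without overlap were found for 2.35% of all probes in that direction. The study listed UBQ14 among the genes that changed on these same arrays, so that its low p and its lack of overlap are not independent evidence of its direction. No probe passed at an adjusted p under 0.05 (0 higher, 0 lower by limma, with 1049 higher and 1015 lower at an unadjusted p under 0.05, and 0 by the methods' t-test).

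**Figure D1:**
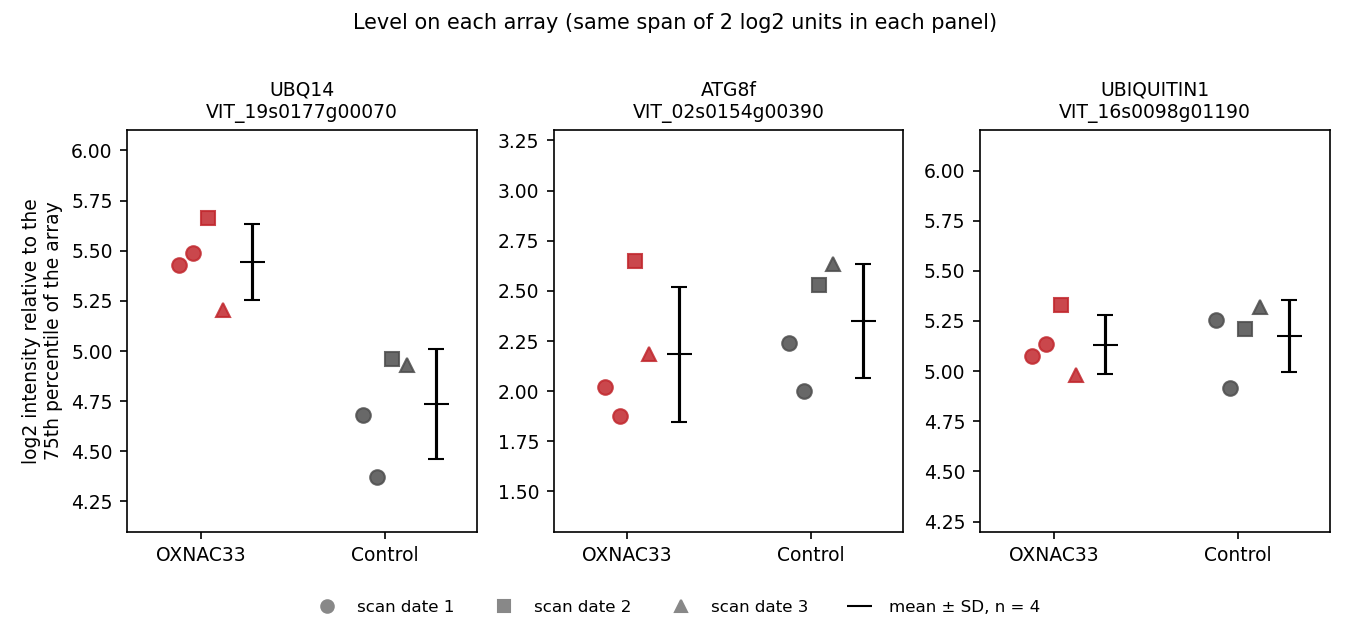
Level of UBQ14, ATG8f and UBIQUITIN1 on each array, in log2 units above the 75th percentile of that array, for OXNAC33 (red) and Control (grey), with the shape of a point giving its scan date and black bars the mean ± SD of 4 arrays. The UBQ14 points of OXNAC33 (5.20 to 5.66) lie above those of Control (4.37 to 4.96), and the points of both groups overlap for ATG8f and UBIQUITIN1.

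The size of the UBQ14 difference varied with the scan date. It was 0.93 on scan date 1, 0.70 on scan date 2 and 0.27 on scan date 3, where the array labelled OXNAC33 replicate 4 was compared with Control replicate 4 on the same slide. All 3 dates had the same sign. Permuting labels within scan dates gave an exact p = 0.0833, the smallest value that this design allows. Leaving out the array labelled OXNAC33 replicate 4 gave 0.79 (limma unadjusted p = 0.00523, adjusted p = 0.258). On scan dates 1 and 2 no slide carried both groups, so that slide and group cannot be told apart there. With slide as a random block over all arrays the difference of UBQ14 was 0.51 (limma unadjusted p = 0.0272).

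Scaling between arrays entered the UBQ14 difference. Before scaling, the processed intensity of UBQ14 was 66000, 63845, 88301 and 64132 on OXNAC33 replicates 1 to 4, and 70995, 46586, 50900 and 42060 on Control replicates 1 to 4. The groups overlapped on that scale through Control replicate 1, the array with the highest 75th percentile. The scanner software had also multiplied the UBQ14 spot by 1.15 to 1.25 on the OXNAC33 arrays and by 1.12 to 1.25 on the Control arrays when it removed spatial trends. With the intensity before that step the difference was 0.66 (limma unadjusted p = 0.00537, adjusted p = 0.657).

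UBIQUITIN1 served as a reference that shares the scaling of each array. The removal of spatial trends differs by spot, and it multiplied the UBIQUITIN1 spot by 0.94 to 1.01. It stood at 5.08, 5.13, 5.33 and 4.98 on OXNAC33 replicates 1 to 4, and at 5.26, 4.91, 5.21 and 5.32 on Control replicates 1 to 4. The groups overlapped, with Control replicate 2 the lowest array and OXNAC33 replicate 3 the highest, 0.42 apart. UBIQUITIN1 averaged 5.13 ± 0.15 in OXNAC33 and 5.18 ± 0.18 in Control (SD, n = 4 each), a difference of -0.04 (SE 0.16, limma adjusted p = 0.951; exact permutation p = 0.743). The 95% interval of this difference ran from 0.752 to 1.25-fold. The direction is not settled, because the difference was 0.052 when the background was corrected by normexp, 0.0058 when the array labelled OXNAC33 replicate 4 was left out and 0.0051 without Control replicate 4.

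The spread of UBIQUITIN1 over the 8 arrays (SD 0.15) was small for this array type, since 5.61% of the probes tested had a lower SD. Its differences within scan dates were 0.02 on scan date 1, 0.12 on scan date 2 and -0.34 on scan date 3. On scan date 3 the array labelled OXNAC33 replicate 4 was thus lower than Control replicate 4 for this gene, while it was higher for UBQ14.

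When UBQ14 was set against UBIQUITIN1 on the same array, as quantitative PCR does, the factor by which each array is scaled dropped out. Because the probes differ in brightness, only the change of this value between groups can be read, not its sign. It was 0.35, 0.36, 0.33 and 0.22 on OXNAC33 replicates 1 to 4, and -0.58, -0.54, -0.25 and -0.39 on Control replicates 1 to 4. The groups stood 0.47 apart at their nearest arrays. The mean was 0.31 ± 0.06 in OXNAC33 and -0.44 ± 0.15 in Control (SD, n = 4 each), a difference of 0.75 or 1.69-fold.

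The exact permutation test of this within-array value gave p = 0.0286, the smallest value possible. As the study listed UBQ14 from these same arrays, this separation is again not independent evidence of its direction. The difference within scan dates was 0.91, 0.58 and 0.61 for dates 1 to 3. Scan date 3 therefore stood closer to the other dates on this scale than on the scale of the 75th percentile, where it gave 0.27 for UBQ14. With replicates of the same number taken as pairs, UBQ14 relative to UBIQUITIN1 was higher in OXNAC33 in 4 of 4 pairs, and the exact sign-flip test gave p = 0.125, the smallest value that 4 pairs allow.

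**Figure D2:**
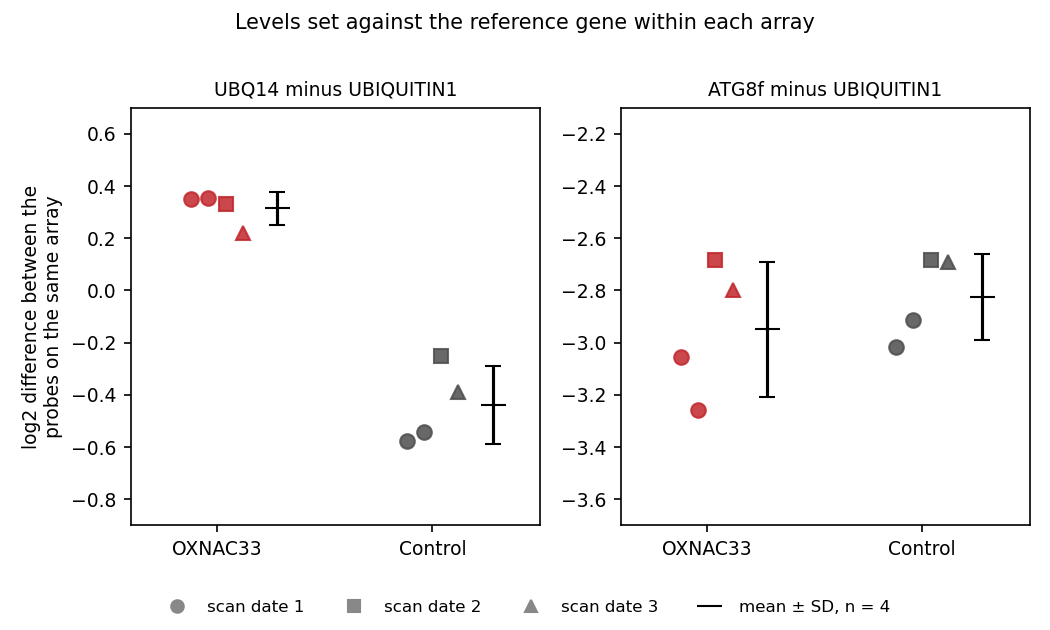
Log2 difference between the probe of UBQ14 (left) or ATG8f (right) and that of UBIQUITIN1 on the same array, for OXNAC33 (red) and Control (grey), with shapes for scan dates and black bars for the mean ± SD of 4 arrays. For UBQ14 the OXNAC33 arrays lie at 0.22 to 0.36 and the Control arrays at -0.58 to -0.25, and for ATG8f the groups overlap.

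ATG8f, which the study connects with VviNAC33 through other experiments, did not separate the groups. It stood at 2.02, 1.88, 2.65 and 2.19 on OXNAC33 replicates 1 to 4, and at 2.24, 2.00, 2.53 and 2.63 on Control replicates 1 to 4. The lowest and the highest array both belonged to OXNAC33, so that the Control arrays lay inside the OXNAC33 range. In linear terms ATG8f was 3.67 to 6.27 times the 75th percentile on the OXNAC33 arrays and 4.0 to 6.20 times on the Control arrays. It averaged 2.18 ± 0.33 in OXNAC33 and 2.35 ± 0.29 in Control (SD, n = 4 each), a difference of -0.17 (SE 0.23, limma adjusted p = 0.845; exact permutation p = 0.457). The 95% interval ran from 0.623 to 1.27-fold, so that a fall or a rise of that size could not be told apart from no change.

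The direction of ATG8f differed between scan dates, at -0.17 on scan date 1, 0.12 on scan date 2 and -0.45 on scan date 3. In both groups the arrays of scan date 1 stood low, as those 4 lay between 1.88 and 2.24 and the other 4 between 2.19 and 2.65. Relative to UBIQUITIN1 on the same array, ATG8f was at -3.06, -3.26, -2.68 and -2.80 on OXNAC33 replicates 1 to 4, and at -3.01, -2.91, -2.68 and -2.69 on Control replicates 1 to 4. The groups overlapped on this scale as well. The difference of means was -0.12 (exact permutation p = 0.429), and the pairs of equal replicate number differed by -0.041, -0.34, -0.0022 and -0.11. With labels permuted within scan dates the exact p was 0.0833, and a sign-flip over pairs gave an exact p of 0.125, each the smallest value its design allows. In the main setting, 15 exact tests were made on the 3 genes, with 5 values each permuted freely, within scan dates and over pairs. The values relative to UBIQUITIN1 were also permuted freely under other processing and with single arrays left out.

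Other loci of the same families were examined to see whether they moved with these genes. The second UBQ14 locus and UBQ4 were named outside the rule for naming genes. From the ubiquitin list that rule picked a ubiquitin family gene with a difference of -1.03. The second locus named UBQ14 (VIT_19s0177g00040) stood at 5.90, 5.71, 6.42 and 5.68 on OXNAC33 replicates 1 to 4, and at 5.42, 5.36, 6.01 and 5.47 on Control replicates 1 to 4. Control replicate 3 lay above OXNAC33 replicates 1, 2 and 4, so that the groups overlapped. The difference was 0.36 (SE 0.23, limma unadjusted p = 0.154, adjusted p = 0.685), and it was 0.41 on scan date 1, 0.41 on scan date 2 and 0.21 on scan date 3. Its unadjusted p was 0.0239 in the fit with scan date as a block and 0.0450 in the fit with a replicate block.

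UBQ4 (VIT_14s0036g01020), another polyubiquitin gene, was at 4.68, 4.52, 4.62 and 4.38 on OXNAC33 replicates 1 to 4, and at 4.40, 4.31, 4.47 and 4.31 on Control replicates 1 to 4. It differed by 0.18 (SE 0.14, limma adjusted p = 0.729), and on scan dates 1 to 3 the values were 0.24, 0.15 and 0.07. The difference was thus above 0 and smallest on scan date 3 for UBQ14, its second locus and UBQ4. Scan date 3 also gave the lowest difference for UBIQUITIN1 (-0.34) and ATG8f (-0.45), so that this low was not particular to those loci. Of the other ATG8 loci, it did so for the second ATG8f locus (-0.72), ATG8i (-0.52) and ATG8C (-0.09), but not for ATG8d (0.09). Polyubiquitin genes share nearly the same sequence in every repeat, and the files used here give no probe sequence. Whether these probes bind transcripts of one another was not tested, so that the separate values of UBQ14, its second locus, UBQ4 and UBIQUITIN1 are uncertain to that extent.

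Among the ATG8 genes, the second locus named ATG8f (VIT_15s0048g00660) stood at 1.44, 1.49, 1.74 and 1.08 on OXNAC33 replicates 1 to 4, and at 2.18, 1.64, 1.62 and 1.80 on Control replicates 1 to 4. It differed by -0.37 (SE 0.20, limma adjusted p = 0.655), with differences of -0.45, 0.13 and -0.72 on scan dates 1 to 3. Both loci named ATG8f thus had a positive difference on scan date 2 alone, and neither passed the test. These signs were not particular to them. An ATG18d gene (VIT_07s0104g01790; -0.19, 0.13 and -0.23 on scan dates 1 to 3) and the proteasome gene PAD2 (-0.05, 0.30 and -1.04) had them too, while ATG8C, ATG8d and ATG8i did not. ATG8C (VIT_19s0090g00580) was at 3.40, 2.84, 2.50 and 2.14 on OXNAC33 replicates 1 to 4, and at 2.56, 2.49, 2.18 and 2.22 on Control replicates 1 to 4. Its difference of 0.36 (SE 0.27, limma adjusted p = 0.722) was 0.13 without OXNAC33 replicate 1, the highest array, 0.55 when the array labelled OXNAC33 replicate 4 was left out and 0.15 with slide as a random block. ATG8d differed by -0.04 and ATG8i by 0.07, and these were named after their values were seen to complete the family. As with polyubiquitin, binding of ATG8 probes to transcripts of related loci was not tested.

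**Figure D3:**
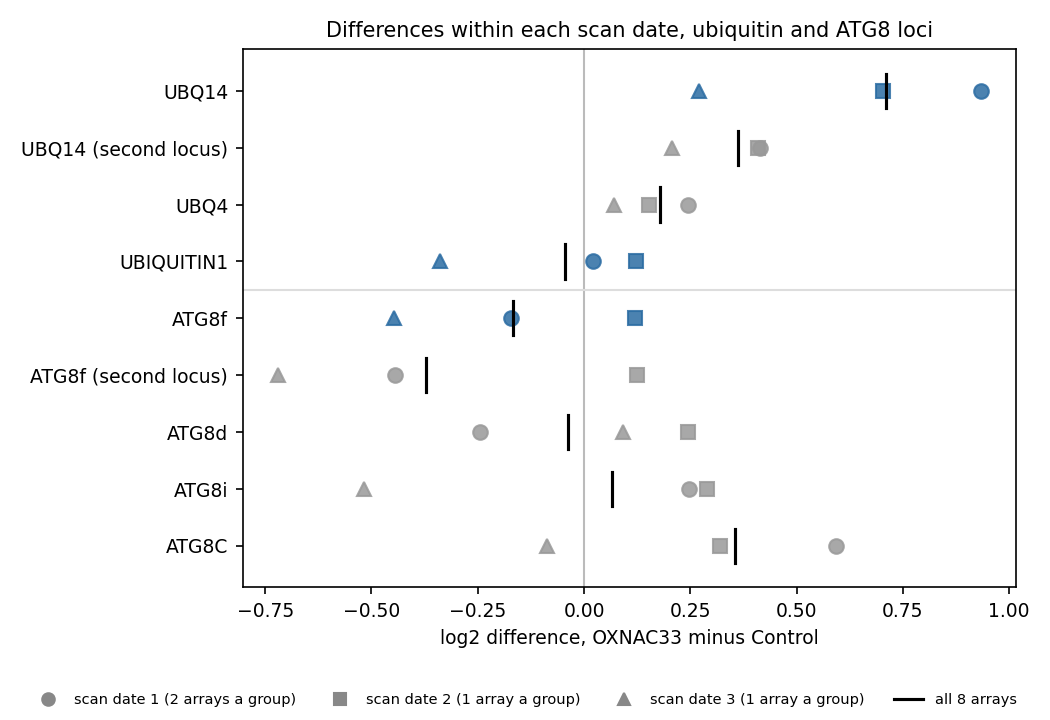
Log2 difference, OXNAC33 minus Control, of ubiquitin loci (above the line) and ATG8 loci (below it) within each scan date (points, 2 arrays a group on scan date 1 and 1 on the others) and over all 8 arrays (black bar), with UBQ14, UBIQUITIN1 and ATG8f in blue. The 3 differences of UBQ14 (0.93, 0.70 and 0.27) lie above 0, while those of UBIQUITIN1 (0.02, 0.12 and -0.34) and ATG8f (-0.17, 0.12 and -0.45) lie on both sides of it.

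Genes of the steps around ubiquitin and ATG8 were counted in 5 lists, drawn from names that the study pairs with identifiers in tables made from other experiments. Of 66 genes 65 were tested, and their median difference was 0.03, beside 0.04 over all probes. At an unadjusted p under 0.05, 1 gene was higher and 1 lower, together 3.08% of the lists beside 7.77% of all probes. Neither passed after adjustment (limma adjusted p = 0.636 for both). The study's own list of changed genes from these arrays also holds both. The count was 4 of 65 genes with scan date as a block, where 15.1% of all probes were called, and likewise with the replicate number as a block, where 12.4% were called.

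Of the ubiquitin and ubiquitin-like genes, 6 of 8 had a difference above 0, with a median of 0.15. The 1 gene called was a ubiquitin family gene (VIT_14s0219g00210), which stood at -2.88, -2.84, -3.16 and -2.07 on OXNAC33 replicates 1 to 4, and at -1.63, -1.38, -1.63 and -2.20 on Control replicates 1 to 4. It differed by -1.03 (SE 0.28, limma unadjusted p = 0.00567), the opposite direction to UBQ14. On scan date 3 its difference was 0.13, so that the array labelled OXNAC33 replicate 4 and its partner lay on the other side of 0 from scan dates 1 and 2 (-1.36 and -1.53). After leaving out the array labelled OXNAC33 replicate 4 the difference was -1.25, and with slide as a random block it was -0.54 and no longer called (limma unadjusted p = 0.116). Of the 7 autophagy genes, which included ATG18d loci and a regulatory subunit of phosphoinositide 3-kinase, 0 were called, 4 had a difference above 0 and the median was 0.04.

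Among the 28 conjugation genes tested (E2 and E3 enzymes and parts of their complexes), 0 were called, 17 had a difference above 0 and the median was 0.05. The largest in size were an E3 ligase gene of the HUWE1 type (VIT_19s0015g00660, -0.48, SE 0.35) and a gene for a RUB1-conjugating enzyme (VIT_03s0063g02110, 0.46, SE 0.23), which attaches the ubiquitin-like protein RUB1. The HUWE1 probe exceeded background clearly on 3 of the OXNAC33 and 2 of the Control arrays, and its unadjusted p was 0.0221 with scan date as a block and 0.0361 with the replicate number as a block. Its difference was -0.22 when the array labelled OXNAC33 replicate 4 was left out, -0.29 without Control replicate 2, -0.30 with normexp and -0.16 with array weights.

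Of the 11 proteasome genes, 9 lay below 0 with a median of -0.06, and 0 were called. The largest in size were RPN6 (VIT_01s0182g00070, 0.33, SE 0.16), a subunit of the regulatory particle, and PAD2 (VIT_04s0023g03690, -0.21, SE 0.29), a subunit of the core. PAD2 differed by -0.05, 0.30 and -1.04 on scan dates 1 to 3. Its difference was -0.08 when the array labelled OXNAC33 replicate 4 was left out, -0.06 without Control replicate 4, -0.44 without OXNAC33 replicate 3 and -0.54 with slide as a random block. Of the 11 deubiquitination and COP9 signalosome genes, 8 lay above 0 with a median of 0.11. The 1 called was a zinc finger ubiquitin hydrolase gene (VIT_11s0016g05600, 0.43, SE 0.16, limma unadjusted p = 0.0244), with differences of 0.57, 0.29 and 0.30 on scan dates 1 to 3. Its unadjusted p lay between 0.0524 and 0.0614, past the threshold, when OXNAC33 replicate 1, 2 or 3 or Control replicate 1, 2 or 4 was left out.

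**Figure D4:**
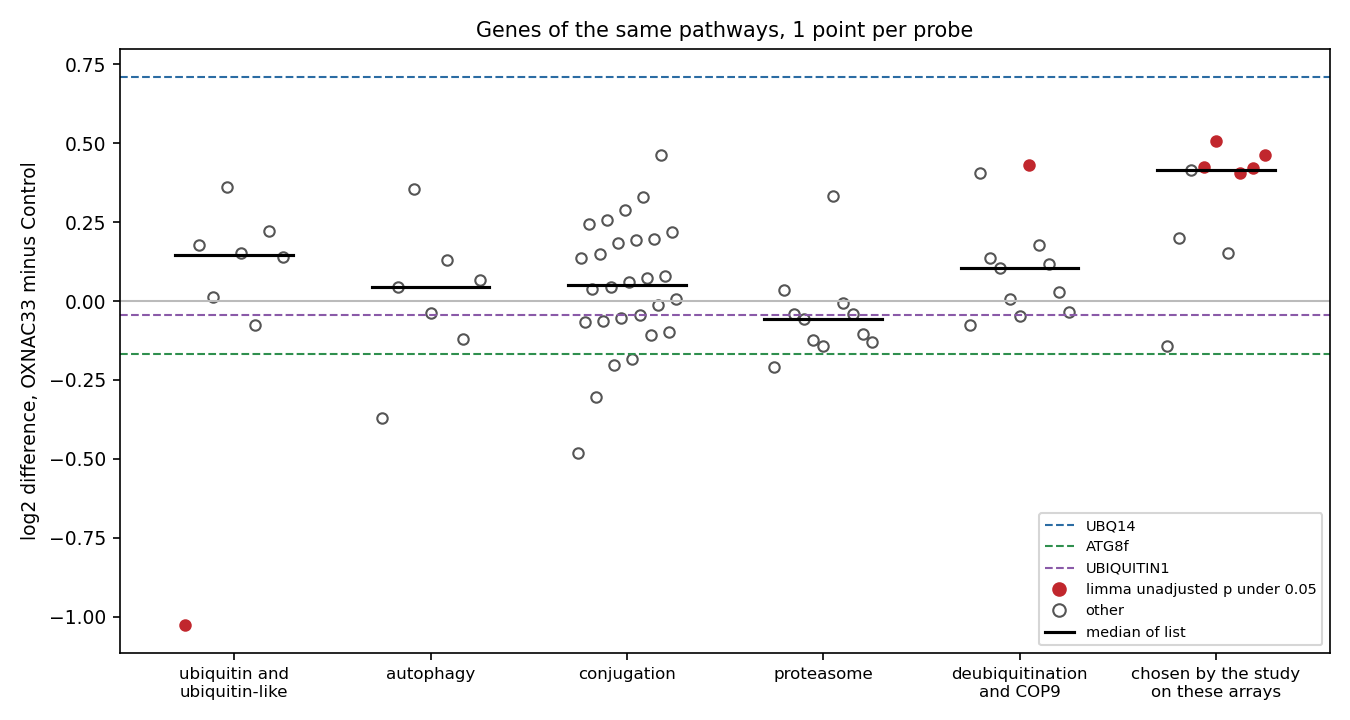
Log2 difference, OXNAC33 minus Control, of each tested gene in 5 lists around ubiquitin and autophagy and in a sixth group that the study chose on these same arrays; filled points have a limma unadjusted p under 0.05, black bars are medians, and dashed lines mark UBQ14 (0.71), ATG8f (-0.17) and UBIQUITIN1 (-0.04). The dashed line of UBQ14 lies above every point, and the medians of the 5 lists lie between -0.06 and 0.15.

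A further 9 genes of these pathways were named by the study only from the present arrays, and their values are a description. Of them 8 lay above 0, with a median difference of 0.41, and 5 had an unadjusted p under 0.05 in limma (2 in the fit with a replicate block), beside 7.77% and 12.4% of all probes. Because the study chose these 9 as changed on the same arrays, nothing is read from that count. They included a ubiquitin carboxyl-terminal hydrolase 8 gene (VIT_08s0032g01080, 0.51), UBP27 (0.42) and UBP12 (VIT_06s0009g00960, 0.40), all deubiquitinating enzymes, and a second zinc finger ubiquitin hydrolase (VIT_00s0125g00250, 0.41). Cullin-1, the scaffold of SCF ubiquitin ligases, differed by 0.46, COP9 subunit 4 by 0.20 and the E2 enzyme UBC27 by -0.14. The autophagy enzymes differed by 0.43 for ATG10, which is E2-like, and by 0.15 for ATG7. ATG10 stood at -0.20, -0.34, -0.21 and -0.07 on OXNAC33 replicates 1 to 4, and at -0.91, -0.58, -0.29 and -0.73 on Control replicates 1 to 4. The adjusted p-values of these 9 genes in limma lay between 0.636 and 0.766. The Cullin-1 probe was dim, at a mean of -4.41 in OXNAC33 and -4.87 in Control. Its difference was 0.17 when the background was corrected by normexp. With normexp ubiquitin carboxyl-terminal hydrolase 8 differed by 0.26 and the second zinc finger ubiquitin hydrolase by 0.25, while COP9 subunit 4 stayed at 0.20.

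The probes whose levels over the 8 arrays were most like those of each gene were also listed, as a description. For UBQ14 they were VIT_04s0023g01900, an AAA-type ATPase gene (Pearson r = 0.989), VIT_14s0066g01530 (r = 0.985) and VIT_07s0129g01060, a D-amino acid oxidase gene (r = 0.983), all of which the study also listed from these arrays. The second locus of UBQ14 had r = 0.767 with it and UBIQUITIN1 r = 0.307. For ATG8f the highest values were 0.987, 0.983 and 0.983, and its r with UBIQUITIN1 was 0.752 and with UBQ14 0.0850. For UBIQUITIN1 they were 0.987, 0.974 and 0.972. The tables used here give no names for these 6 probes. All of these were sought among 26466 probes with values on every array, and the 8 points share the scaling and scan dates of the arrays.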

How the data were processed

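Leaf RNA of 4 OXNAC33 and 4 Control plants was hybridized to 1-colour (Cy3) custom Agilent arrays of 34369 probes. Per the file headers, the authors scanned the arrays and extracted the spots with Feature Extraction 10.5.1.1, which subtracted background and removed spatial trends. The deposited processed intensity is linear and not scaled between arrays. The deposited headers also hold an intensity before detrending, median spot and background intensity, and marks of spot quality. A second table deposited by the authors holds the same intensity times 1 factor per array for 24631 probes. Here each processed intensity was divided by the 75th percentile of its array and taken as log2. The 140 outlying spots were left out, 0 spots were saturated, and 26579 probes well above background on at least 4 of 8 arrays were tested. Between 73.8% and 84.1% of probes were well above background, and the number of arrays limits the precision.

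Groups came from sample titles and were compared with limma 3.58.1 (R 4.3.3), group as the only term, after the methods, with Benjamini-Hochberg adjustment over all probes. The fitting code was tested on simulated data. Single values were compared by two-sided exact permutation (scipy 1.17.1, Python 3.11.15) and figures drawn with matplotlib 3.10.9. An unadjusted p under 0.05 counted as called. The labels do not say whether plants were infiltrated together, so p-values measure only the spread between the arrays of these plants. With group as the only term, that spread also holds differences between scan dates and slides.

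Alternatives were normexp (offset 50, on median spot intensity, because no mean intensity was among the columns), quantile normalization, the authors' scaled table, no filter, replicate, scan date or slide blocks, array weights, the methods' t-test, each array left out and, added after the data were seen, the intensity before detrending. Equal replicate numbers, which shared a scan date, were treated as pairs because deviations from group means correlated at r over 0.1 for each (0.490, 0.253, 0.496 and 0.102 for numbers 1 to 4). Unequal numbers correlated at -0.634 to 0.499, and OXNAC33 replicates 2, 3 and 4 each correlated more strongly with another number than with their own.

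The genes, the lists and the rule for naming genes (from each list those called or else the 2 largest differences, all genes named from these arrays, and the 3 most similar probes per gene) were chosen with earlier results of these data known. The second UBQ14 locus, UBQ4, ATG8d, ATG8i and the ATG18d gene were named outside that rule, as loci of the same families or lists. Names are those the study pairs with identifiers, because 0 identifiers matched the reference table of symbols. Sequences and coordinates were not used here.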

Additional observations from a re-analysis of the deposited data

Results flagged for a closer look

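In 2 of the 56 groups of 4 arrays examined over the named genes, 1 array stood far from the others, where chance gives about 1 in 20 groups, or 2.8. Both were on Control replicate 3. For the second locus named UBQ14 (VIT_19s0177g00040) this array had a level of 6.01, against 5.36 to 5.47 on the other Control arrays, a gap of 0.830 of the range of the group. For RPN6 (VIT_01s0182g00070) it had 0.17, against -0.13 to -0.09, a gap of 0.880 of the range. UBQ14, ATG8f and UBIQUITIN1 had no such gap in either group. Without Control replicate 3 the difference of RPN6 was 0.40 (limma unadjusted p = 0.0428, adjusted p = 0.505). The study also listed this RPN6 gene from these arrays, so that this p is not independent evidence of its direction.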

How the results depend on the processing

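UBQ14 stayed higher in OXNAC33 with an unadjusted p under 0.05 in all 18 alternatives, at 0.51 (slide as a random block) to 0.79, and at 0.59 to 0.79 with single arrays left out. Its adjusted p was under 0.05 only with array weights (0.0462), which gave OXNAC33 replicate 2 a weight of 13.1. ATG8f stayed below 0 in all 18 alternatives, at -0.39 to -0.07, with 0 calls (lowest unadjusted p 0.0537, array weights). UBIQUITIN1 changed sign with normexp (0.052) and ranged from -0.13 to 0.0058 with single arrays left out. The difference of 0.75 for UBQ14 relative to UBIQUITIN1 is the same by construction with the replicate block (exact p = 0.125) and within scan dates (exact p = 0.0833), and it was 0.71 to 0.82 with single arrays left out (exact p = 0.0571). These are the smallest p-values that each design allows. ATG8f relative to UBIQUITIN1 gave -0.21 to -0.02 with single arrays left out.

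Probes at an unadjusted p under 0.05 numbered 2064, but 1247 with normexp, 3308 with the replicate block, 4005 with scan date as a block, 8331 with array weights and 1081 (without OXNAC33 replicate 2) to 3001 (without the array labelled OXNAC33 replicate 4) with single arrays left out, with 1089 without OXNAC33 replicate 1. Adjusted calls were 0, but 2 with the replicate block, 967 with array weights and 0 to 2 with single arrays left out. The 2 pathway genes called became 4 with the replicate block or scan date as a block, 1 with slide as a random block, 10 with array weights, 5 with the methods' t-test and 1 to 5 with single arrays left out. Of these, leaving out Control replicate 3 gave 5, and leaving out OXNAC33 replicate 1, 2 or 3 or Control replicate 1 or 2 gave 1. Over all 26579 probes, 2013 were called with the methods' t-test, 2042 with slide as a random block and 2577 without Control replicate 3. The counts of pathway genes, out of 65 tested, are to be read beside these, and nothing is concluded about the pathways from their changes. With the replicate block, calls changed for VviNAC33, LHCA5, the second UBQ14 locus, the HUWE1 gene and, of the genes the study chose on these arrays, ATG10, UBP12 and Cullin-1, and for no other named gene. The cause of these shifts was not tested.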
